A study of Homo sapiens with 54 samples.

Results

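The 10 genes described here are *SRSF1*, *SRSF2*, *SRSF3*, *SRSF4*, *SRSF5*, *SRSF6*, *SRSF7*, *SRSF9*, *SRSF10* and *SRSF11*, which encode SR splicing factors. They were taken by their symbols from tables that list 55906 genes each, and all 10 were present and expressed highly enough to be tested in each of 4 human cancer cell lines. The RNA-sequencing comprised 54 libraries in 18 conditions of 3 replicates, and asked how cells respond to the loss of *TRA2A* and its paralog *TRA2B*, a pair of genes that encode splicing activators with the same kind of arginine- and serine-rich domain. A549 and NCI-H23 are lung cancer lines that stably expressed Zim3-dCas9, a nuclease-dead Cas9 fused to a repressor domain that silences promoters (CRISPRi), and they were collected on day 5 after transduction with guides against control loci (Control KD), *TRA2A* (*TRA2A* KD), *TRA2B* (*TRA2B* KD) or both (*TRA2A/B* DKD). LN229 and LN319 are glioma lines with Cas9, collected on day 7. They overexpressed either luciferase (Luc), with control (Control KO), *TRA2A* (*TRA2A* KO) or *TRA2B* (*TRA2B* KO) guides, or *TRA2B* (TRA2B-OE), the latter combined with Control KO or *TRA2A* KO. The Zim3-dCas9 cells were populations sorted for a reporter, so the values average over a population rather than a clone.

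SR proteins bind short motifs in exons through RNA recognition motifs, and through their arginine- and serine-rich tails they bring the U1 snRNP and U2AF to nearby splice sites. Kinases of the CLK and SRPK families phosphorylate these tails, transportin carries the proteins into the nucleus, and some family members also hand the spliced mRNA to the export receptor NXF1. Many SR genes carry an alternative exon that brings in a premature stop codon, a poison exon, whose inclusion sends the transcript to nonsense-mediated decay (NMD). The TRA2 proteins prefer purine-rich motifs with the core AGAA.

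On GRCh38 (Gencode v44), *SRSF1* lies on chromosome 17 at 58000919 to 58007346 and *SRSF2* at 76734115 to 76737333, both on the minus strand. Chromosome 1 carries *SRSF10* (23964347 to 23980927, minus), *SRSF4* (29147743 to 29181900, minus) and *SRSF11* (70205682 to 70253052, plus). The others lie on chromosomes 6 (*SRSF3*, 36594353 to 36605600, plus), 14 (*SRSF5*, 69726900 to 69772005, plus), 20 (*SRSF6*, 43457893 to 43466046, plus), 2 (*SRSF7*, 38743599 to 38751494, minus) and 12 (*SRSF9*, 120461672 to 120495946, minus).

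Cassette exons with this annotation were looked up in the Gencode v44 annotation of GRCh38, as internal exons of at least 30 bases that lie inside an intron of the main transcript, occur in NMD transcripts and are an internal exon of none of the protein-coding transcripts. There were 17, some of which overlap, in 8 of the 10 genes, and none by this rule in *SRSF1* or *SRSF5*. The sequences below are the 30-base stretch with the most AGAA matches in an exon, or its first 30 bases where it held none, read on the strand of the gene with each AGAA in capitals, and they show the range from dense to absent. They come from a 363-base exon of *SRSF10* (chr1:23978105-23978134, minus strand), a 449-base exon of *SRSF7* (chr2:38749312-38749341, minus), a 104-base exon of *SRSF2* (chr17:76735846-76735875, minus), a 456-base exon of *SRSF3* (chr6:36599821-36599850, plus) and a 268-base exon of *SRSF6* (chr20:43459153-43459182, plus).
SRSF10: aaaAGAAaaaataaAGAAaagctggaAGAA
SRSF7: ttcgtttgagtcagtcgccttgattcAGAA
SRSF2: ctgcggtctcctgtttgataaaAGAAtatt
SRSF3: agtcaccatcatgtctcttctcaccaccct
SRSF6: tgaccaatggggctgaggctgtgtccactg
The *SRSF10* exon held 7 matches, or 1.93 per 100 bases, and 11.97% of all such exons reached that density. The *SRSF7* exon held 5 and the *SRSF2* exon 1, while the *SRSF3* and *SRSF6* exons shown held 0. Of the 17 exons, 7 held at least 1 match, against 52.5% of the 6299 exons of this kind in 3601 protein-coding genes. Only the strand of the gene was searched, and matches were counted as letters. The TPM tables sum all transcripts of a gene, so they do not show how often any of these exons was included.

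In control cells the SR genes spanned a wide range of levels (TPM as deposited, which is per length and can be compared between genes). *SRSF3*, which encodes the smallest SR protein and an adaptor for NXF1, was highest or next to highest in every line, with 332 ± 77.6 TPM (SD, n = 3) for A549, 389 ± 36.02 for NCI-H23, 375 ± 20.2 for LN229 and 448 ± 29.8 for LN319. *SRSF2*, which encodes the enhancer-binding protein SC35, led in both glioma lines with 484 ± 67.1 TPM in LN229 and 492 ± 7.56 in LN319, and it was at 226 ± 43.97 in A549 and 251 ± 34.03 in NCI-H23. *SRSF6*, whose product is closely related to those of *SRSF4* and *SRSF5*, was lowest or next to lowest, between 50.1 ± 1.18 TPM in LN319 and 91.1 ± 5.66 in LN229. The highest of the 10 genes exceeded the lowest by 6.03-fold (A549), 5.20-fold (NCI-H23), 5.32-fold (LN229) and 9.82-fold (LN319).

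The order of the genes was not the same in each line. In A549 it ran *SRSF3*, *SRSF1*, *SRSF2*, *SRSF9*, *SRSF7*, *SRSF5*, *SRSF11*, *SRSF10*, *SRSF6* and *SRSF4*, and only the steps from *SRSF3* to *SRSF1* and from *SRSF10* to *SRSF6* separated neighbours without overlap of their libraries. NCI-H23 began with *SRSF5*, *SRSF3* and *SRSF9*, whose libraries overlapped in turn. In LN319, *SRSF11*, which encodes a divergent SR protein that contacts U2AF, ranked 3 with 422 ± 20.6 TPM, against rank 7 with 101 ± 20.02 TPM in A549. That 4.20-fold span between lines was the widest of the 10 genes, followed by *SRSF10* (3.79-fold), *SRSF4* (3.43-fold) and *SRSF5* (3.17-fold). *SRSF3* (1.35-fold) and *SRSF1* (1.46-fold) varied least. Lines were quantified in separate tables, so these spans are given without a test. Between a lung and a glioma line, the controls also differed in the form of Cas9, luciferase expression and the day of collection. These cannot be told apart from the line.

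**Figure D1:**
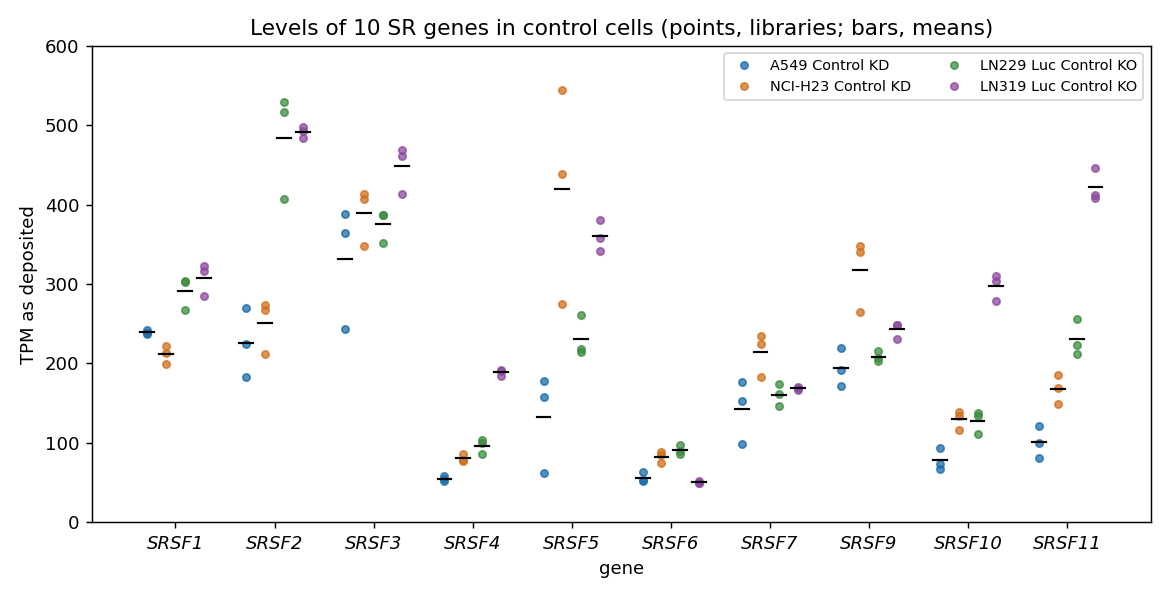
TPM as deposited (y axis) of the 10 SR genes (x axis) in the 3 control libraries of each cell line, with a point for each library and a bar at the mean. *SRSF11* and *SRSF10* lie higher in LN319 than in the other lines, while *SRSF3* lies in a similar range in all.

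The summed level of the 10 genes was 1557 ± 199 TPM in A549 Control KD, 2264 ± 321 in NCI-H23 Control KD, 2298 ± 103 in LN229 Luc Control KO and 2979 ± 12.2 in LN319 Luc Control KO. In *TRA2A/B* DKD the sum was 1377 ± 165 TPM in A549 and 2328 ± 401 in NCI-H23, within the spread of the controls. The NCI-H23 sum holds a rise of *SRSF5* from a mean of 420 to 854 TPM, while most of the other genes were lower. The sum was 2775 ± 106 TPM in NCI-H23 *TRA2B* KD. In LN319 it was 2768 ± 92.7 in Luc *TRA2A* KO and 3100 ± 40.7 in Luc *TRA2B* KO. These sums are descriptions, and after scaling between libraries they moved by over 1 SD in 6 of the 18 groups.

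The targeted genes check the labels. *TRA2A* was at 9.56% of control in A549 *TRA2A* KD and at 6.54% in NCI-H23, *TRA2B* was at 9.68% and 10.6% in the *TRA2B* KDs, and in *TRA2A/B* DKD they were at 13.9% and 16.3% in A549 and at 20.5% and 25.2% in NCI-H23. Cas9 cutting left more RNA, with *TRA2A* at 62.9% and *TRA2B* at 66.0% of control in the LN229 Luc KOs and at 33.2% and 35.1% in LN319. The paralog not targeted also changed in some groups, at an adjusted p under 0.05 (limma). *TRA2A* was lower in LN319 Luc *TRA2B* KO but higher in LN229 Luc *TRA2B* KO and NCI-H23 *TRA2B* KD, and *TRA2B* was higher in NCI-H23 *TRA2A* KD. In the other single KDs and Luc KOs it did not pass. In LN229 TRA2B-OE *TRA2A* KO, *TRA2A* was at 87.2% of the TRA2B-OE control, which did not pass the test (adjusted p = 0.068, limma with Benjamini-Hochberg adjustment), so these are called the libraries labelled *TRA2A* KO. Overexpression brought *TRA2B* to 374% of control in LN229 and 873% in LN319. In both lines *TRA2A* was lower in TRA2B-OE Control KO than in Luc Control KO (adjusted p under 0.05, limma). The 87.2% in LN229 is therefore a share of an already lowered level. Of the 6 epithelial markers listed, *KRT8* and *KRT18* were at 445 TPM or more in every library of the lung lines, and *KRT7* was at 3252 to 3963 TPM in A549 but at 1.46 to 4.49 TPM in NCI-H23. *EPCAM* was at 0.849 to 3.77 TPM in A549 and 0.638 to 1.74 TPM in NCI-H23, where *CDH1* (0.550 to 2.47 TPM) and *KRT19* (0 to 0.604 TPM) were also near 0. The mesenchymal markers listed did not go together in NCI-H23. *VIM* was at 1121 to 1687 TPM and *CD44* at 53.1 to 100 TPM, but *FN1* was at only 0.463 to 1.96 TPM. In A549, *CDH1* was at 7.95 to 25.2 TPM and *KRT19* at 4.72 to 26.7 TPM, with *VIM* at 835 to 1196 TPM, *FN1* at 193 to 364 TPM and *CD44* at 239 to 358 TPM. In the glioma lines, *SOX2* was at 20.4 to 90.8 TPM in LN229 and 316 to 490 TPM in LN319, while *GFAP*, the defining astrocyte gene, was at most 5.17 TPM. The other glial or neural markers listed were higher in LN229, with *S100B* at 56.5 to 1035 TPM, *NES* at 213 to 286, *FABP7* at 13.1 to 229 and *OLIG2* at 5.93 to 14.2. In LN319, *NES* was at 6.12 to 14.7 TPM, and *S100B*, *FABP7* and *OLIG2* were at most 1.07, 0.438 and 0.140 TPM. *CDH1*, an epithelial marker, was at 116 to 150 TPM in LN319. The mitochondrial share, the percentage of all TPM that mitochondrially encoded genes made up, ranged from 15.4% to 23.8% over the A549 libraries, from 17.8% to 33.4% over NCI-H23, from 6.02% to 8.31% over LN229 and from 12.1% to 20.6% over LN319. Replicate 3 of A549 Control KD stood apart, with a median correlation of 0.837 with the other A549 libraries, where no other fell below 0.872.

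Single knockdown left no SR gene past the test. A gene is called below at an adjusted p under 0.05 in limma with Benjamini-Hochberg adjustment over all genes tested, with no minimum fold change, and changes are log2 fold changes of scaled log2(TPM + 0.1). Of the 10 genes, 0 were called in A549 *TRA2A* KD, where 0.213% of all genes were, and 0 in A549 *TRA2B* KD (0.335%). In NCI-H23, 0 were called in *TRA2A* KD (0.976%) and 0 in *TRA2B* KD (0.196%). At an unadjusted p under 0.05 the counts were 0, 0, 1 (*SRSF10*) and 2 (*SRSF3* and *SRSF7*) of 10 in the same order. The shares of all genes were 11.3%, 13.6%, 13.6% and 10.6%. The largest estimate was that of *SRSF5* in A549 *TRA2B* KD, 0.71 with an adjusted p of 0.423 (limma), and without replicate 3 of the control it was 0.15. Without scaling, the median of all genes shifted by -0.14 in A549 *TRA2A* KD and by 0.11 in NCI-H23 *TRA2B* KD. Here and below, bulk RNA cannot tell fewer cells of a kind from less RNA per cell.

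More SR genes were called in the double knockdowns. In A549 *TRA2A/B* DKD, 4 of 10 were called, a share near the 30.5% of all genes, with *SRSF1*, *SRSF2* and *SRSF9* lower (3 of 10 against 15.9% of all genes) and *SRSF6* higher (1 of 10 against 14.6%). In NCI-H23 *TRA2A/B* DKD, 9 of 10 were called against 43.2%, of which 8 fell (*SRSF1*, *SRSF2*, *SRSF3*, *SRSF4*, *SRSF7*, *SRSF9*, *SRSF10* and *SRSF11*, against 23.2% of all genes) and *SRSF5* rose (1 of 10 against 20%). The median log2 fold change of the 10 genes was -0.19 for A549 and -0.34 for NCI-H23, beside 0.04 and 0.02 over all genes. No SR gene passed an absolute log2 fold change of 1, the size the study required. On the TPM as deposited, the median of all genes shifted by 0.15 in NCI-H23, the share of higher genes among the calls went from 46.2% to 63.0%, and 4 SR genes were called there, with 42.6% of all genes.

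*SRSF1*, which encodes the founding SR protein and a known oncogene product that promotes 5′ splice site use, fell in both lines. In A549 it was at 237, 238 and 242 TPM in Control KD and at 122, 132 and 142 TPM in *TRA2A/B* DKD. In NCI-H23 it was at 199, 222 and 213 TPM in Control KD and again at 122, 132 and 141 TPM in *TRA2A/B* DKD. The groups did not overlap. The single KDs of A549 lay between them and just under the control, at 209 to 233 TPM, while those of NCI-H23 spanned its control, at 195 to 231 TPM. Scaled, the single KDs of A549 were at 0.08 (*TRA2A* KD) and -0.06 (*TRA2B* KD) and were not called. The fitted log2 change was -0.93 (standard error, SE, 0.0941, with adjusted p = 4.33e-05, limma) in A549 and -0.84 (SE 0.0709, adjusted p = 5.69e-06) in NCI-H23. It was called under every alternative run except the study's fold change minimum.

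*SRSF2* fell to a similar degree. Its libraries were at 224, 270 and 182 TPM in A549 Control KD and at 116, 136 and 158 TPM in *TRA2A/B* DKD, and at 211, 273 and 267 TPM in NCI-H23 Control KD and 149, 118 and 153 TPM in *TRA2A/B* DKD. No double-knockdown library reached a control library. The fitted log2 change was -0.79 (SE 0.193, with adjusted p = 0.0107, limma) in A549 and -0.995 (SE 0.113, adjusted p = 4.64e-05) in NCI-H23. In A549 the call was lost with only the compared groups in the fit (adjusted p = 0.059). *SRSF2* overlaps the opposite-strand gene *MFSD11*, an unnamed protein-coding gene on that strand and the miRNA gene *MIR636*, and whether the quantification used strand is not given in the sources used here. In Gencode v44, *SRSF1* and *SRSF6* each overlap an unnamed protein-coding gene on their own strand, where strand would not separate reads. The part of these overlaps in the levels was not tested.

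*SRSF9*, the closest relative of *SRSF1*, fell in both lines by a smaller amount. It was at 192, 220 and 172 TPM in A549 Control KD and at 135, 141 and 163 TPM in *TRA2A/B* DKD, and at 265, 348 and 340 TPM in NCI-H23 Control KD and 270, 216 and 286 TPM in *TRA2A/B* DKD. The groups separated in A549 and overlapped in NCI-H23, where the lowest control library was the one with a mitochondrial share of 31.9%. The log2 fold changes were -0.48 (SE 0.142, adjusted p = 0.0259, limma) and -0.46 (SE 0.109, adjusted p = 0.00575). The A549 call was lost under 6 of 14 alternatives and the NCI-H23 call under 1 of 15. *SRSF9* overlaps *DYNLL1* and *GATC* on the opposite strand and *NRAV* on its own.

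*SRSF3* and *SRSF7*, which encode the pair of SR proteins best known as adaptors for mRNA export, fell in NCI-H23. *SRSF7* went from 183, 235 and 224 TPM in Control KD to 165, 145 and 165 TPM in *TRA2A/B* DKD with no overlap, a log2 fold change of -0.58 (with SE 0.0998 and adjusted p = 7.89e-04, limma). *SRSF3* went from 348, 407 and 413 to 360, 297 and 388 TPM with overlap, a log2 fold change of -0.32 (with SE 0.0843 and adjusted p = 0.0101), and its call was lost without scaling and under quantile normalization. In A549 their log2 fold changes were -0.17 (*SRSF7*) and -0.13 (*SRSF3*) and were not called. Control KD replicate 3, the library that stood apart, was the lowest of its group for both, at 98.0 TPM for *SRSF7* against 152 and 177, and at 244 TPM for *SRSF3* against 388 and 364. Without it, *SRSF7* was at -0.50 (adjusted p = 0.0158) and *SRSF3* at -0.42 (adjusted p = 0.00277), and 6 of the 10 genes were called in A549, against 37.8% of all genes in the same fit.

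*SRSF4*, *SRSF5* and *SRSF6*, which encode closely related proteins with tandem RNA recognition motifs, did not move together. *SRSF6* was at 52.6, 52.6 and 63.6 TPM in A549 Control KD and at 80.8, 79.1 and 80.3 TPM in *TRA2A/B* DKD, and it rose by a log2 fold change of 0.45 (with SE 0.0672 and adjusted p = 6.03e-04, limma). In NCI-H23 it was at 74.1, 85.3 and 87.9 TPM in Control KD and at 81.9, 80.6 and 97.9 TPM in *TRA2A/B* DKD, a log2 fold change of -0.08 (95% interval -0.23 to 0.06, adjusted p = 0.344). *SRSF4* was at 77.3, 86.5 and 78.5 TPM in NCI-H23 Control KD and at 72.5, 65.2 and 73.7 TPM in *TRA2A/B* DKD, a fall of 0.35 (log2 change -0.35, SE 0.0585, with adjusted p = 6.51e-04), which missed the threshold on unscaled TPM (-0.20, adjusted p = 0.0503). In A549 its log2 fold change was 0.02 and was not called. The intervals of *SRSF6* in A549 (0.30 to 0.59) and NCI-H23 did not meet, but the lines were fitted apart and their difference was not tested.

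*SRSF5* varied more, relative to its mean, between the control replicates of the lung lines than the other SR genes did, with an SD of 61.4 around 132 TPM for A549 and of 136 around 420 TPM for NCI-H23. In NCI-H23 it was at 275, 545 and 439 TPM in Control KD, at 563, 307 and 483 in *TRA2A* KD, at 656, 566 and 664 in *TRA2B* KD and at 1008, 561 and 993 TPM in *TRA2A/B* DKD. The double knockdown lay above the control in each library, at 204% of its mean, with a log2 fold change of 0.88 (with SE 0.265 and adjusted p = 0.0204, limma). The lowest library of Control KD, *TRA2A* KD and *TRA2A/B* DKD was in each case the one with the highest mitochondrial share of its group, 31.9%, 33.4% and 28.3%. Across the 12 NCI-H23 libraries the mitochondrial share and the scaled log2 level of *SRSF5* had a Pearson r of -0.82, as a description of libraries that share conditions. Without those 3 libraries, an alternative added after the data were seen, the log2 fold change was 0.89 (adjusted p = 4.92e-04, limma). The libraries kept still differed in mitochondrial share, at 23.1% and 24.9% in Control KD and 19.3% and 19.6% in *TRA2A/B* DKD. This fit therefore cannot separate the share from the knockdown, and the part of the share was not tested. The call of *SRSF5* was lost without Control KD replicate 1, without either *TRA2A/B* DKD replicate 1 or 3, or with no filter on low TPM (adjusted p from 0.0661 to 0.0775, limma). In A549 it was at 157, 178 and 62.5 TPM in Control KD and at 180, 188 and 303 TPM in *TRA2A/B* DKD, a log2 fold change of 0.78 that was not called (adjusted p = 0.180) and that was 0.23 without Control KD replicate 3.

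**Figure D2:**
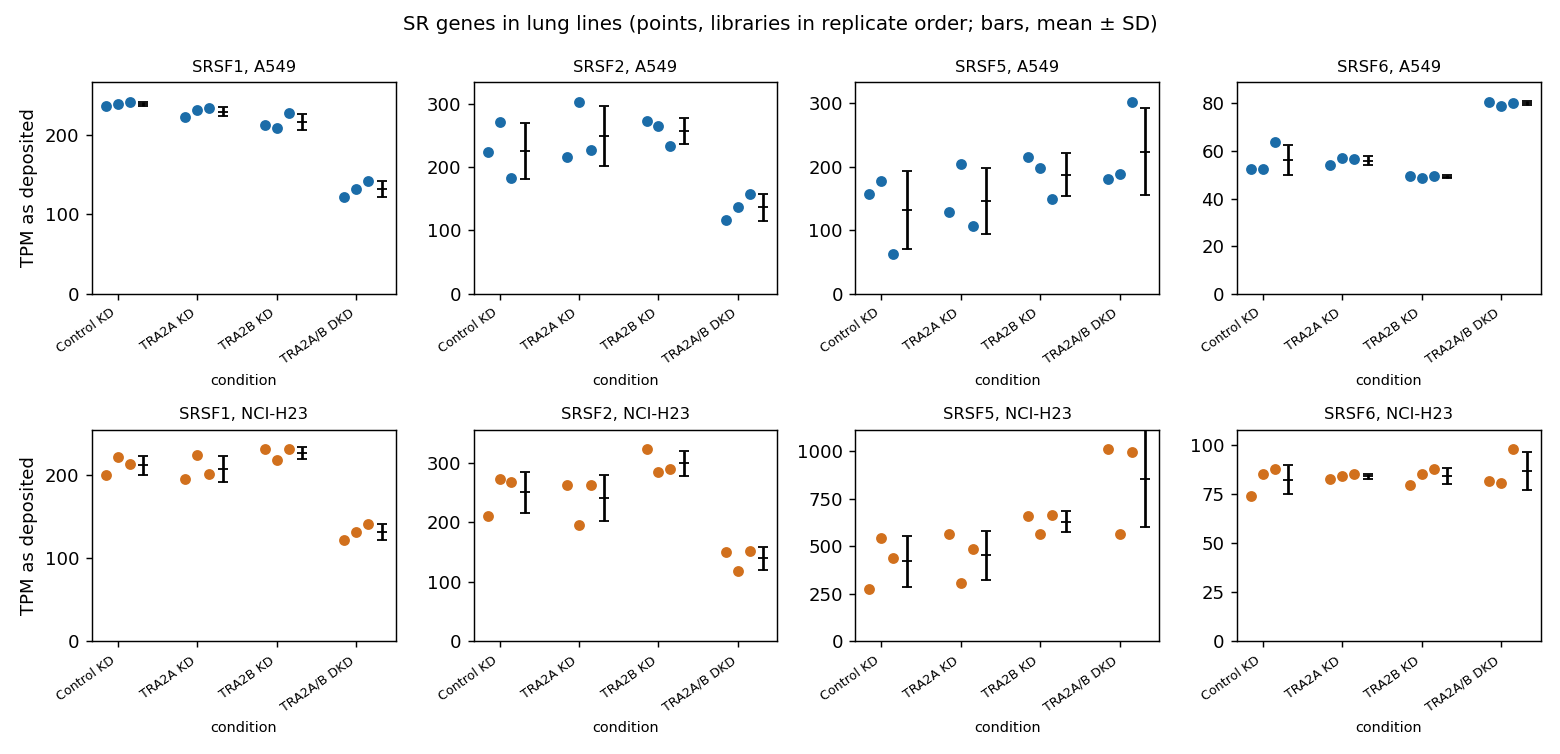
TPM as deposited (y axis) of *SRSF1*, *SRSF2*, *SRSF5* and *SRSF6* in the 4 conditions of A549 (upper row) and NCI-H23 (lower row), with a point for each library and the mean ± SD (n = 3) beside it. *SRSF1* and *SRSF2* are lower in *TRA2A/B* DKD than in each other condition, and *SRSF6* is higher in A549 *TRA2A/B* DKD, at 79.1 to 80.8 TPM against 52.6 to 63.6 in its control.

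*SRSF10* and *SRSF11* encode the outlying members of the family, the first a splicing repressor when dephosphorylated. *SRSF10* fell in NCI-H23 *TRA2A/B* DKD by a log2 fold change of -0.29 (with SE 0.0715 and adjusted p = 0.0067, limma), from 117, 134 and 139 TPM to 125, 106 and 123 TPM, with overlap. *SRSF11* was called there at -0.20 (adjusted p = 0.0467), from 149, 169 and 186 TPM to 165, 146 and 176 TPM, which is 96.6% of the control mean. *SRSF11* lost its call under 12 of 15 alternatives, and *SRSF10* under 2, TPM without scaling and quantile normalization. In A549 the log2 fold changes were -0.27 for *SRSF10* (adjusted p = 0.0712) and -0.20 for *SRSF11* (adjusted p = 0.268).

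Whether the single changes added up to that of the double knockdown was tested as the *TRA2A/B* DKD change minus their sum, on the log2 scale. This does not test whether the double knockdown differed from each single one. In A549, 5 of 10 genes passed (14.7% of all genes), and in NCI-H23, 7 of 10 did (21%). *SRSF2* had the largest difference in both, -1.36 (SE 0.273, adjusted p = 0.00864, limma) in A549 and -1.10 (SE 0.160, adjusted p = 9.13e-04) in NCI-H23, followed by *SRSF1* in A549 (-0.96, adjusted p = 0.00112) and *SRSF7* in NCI-H23 (-0.90, adjusted p = 0.00138). The A549 value of *SRSF2* includes the subtraction of both single changes, 0.29 each and not called. *SRSF5* did not pass in either line. Among all genes that passed, the share with a positive difference was 40.9% in A549 and 39.1% in NCI-H23, and without scaling 72.7% and 49.5%, with a shift of 0.30 in the median of all genes for A549. In A549 the calls of *SRSF9* and *SRSF10* were lost under 12 and 14 of 20 alternatives, while those of *SRSF1* and *SRSF2* were kept under all 20.

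The other genes of the pathway were described from a list of 23, of which 22 were tested in the lung lines. In *TRA2A/B* DKD, 2 rose and 7 fell in A549 (all genes, 14.6% and 15.9%), and 4 rose and 10 fell in NCI-H23 (all genes, 20% and 23.2%), so the rises were below the share of all genes, with median log2 fold changes of -0.17 and -0.10 beside 0.04 and 0.02 over all genes. *SRPK1*, a kinase of SR proteins, fell in both lines, with a log2 fold change of -1.55 for A549 and -1.45 for NCI-H23. *U2AF1*, which encodes the small U2AF subunit that reads the 3′ splice site, rose by 0.89 (adjusted p = 0.0274, limma) and 1.24 (adjusted p = 7.94e-05), and *SRSF8*, a further SR gene, rose by 0.47 and 0.28. *ALYREF*, of the export complex, fell by log2 fold changes of -0.68 and -0.53. Among 6 hnRNP genes, whose products often oppose SR proteins, 3 fell in A549 (15.9% of all genes) and 5 in NCI-H23 (23.2%), with *HNRNPA1* at -1.32 and -1.002.

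In LN229 no SR gene was called. The counts were 0 of 10 in Luc *TRA2A* KO (3.79% of all genes), 0 in Luc *TRA2B* KO (0.557%), 0 in TRA2B-OE Control KO against Luc Control KO (1.03%) and 0 in TRA2B-OE *TRA2A* KO against its own TRA2B-OE control (6.05%). In the same order, 2, 2, 0 and 3 of 10 had an unadjusted p under 0.05, beside 21.6%, 23.3%, 14.3% and 22.2% of all genes. *SRSF2* in Luc *TRA2B* KO was at 386, 397 and 352 TPM against 407, 529 and 516 TPM in the control, a log2 fold change of -0.40 (95% interval -0.66 to -0.13, adjusted p = 0.107, limma). *SRSF3* in TRA2B-OE *TRA2A* KO was at 291, 327 and 304 TPM against 319, 389 and 406 TPM, a log2 fold change of -0.30 (adjusted p = 0.0801). In Luc *TRA2B* KO without replicate 1 of Luc Control KO, *SRSF2* was called at -0.51 (adjusted p = 0.0119, limma) and *SRSF11* at 0.25. In that fit 20.7% of all genes were called. *SRSF3* was called in TRA2B-OE *TRA2A* KO without replicate 1 of TRA2B-OE Control KO, at -0.42 (adjusted p = 0.0190, limma), beside 2.83% of all genes. The response to *TRA2A* KO did not differ by the test between TRA2B-OE and Luc for any SR gene (0 of 10 in LN229, where 0% of all genes passed, and 0 of 10 in LN319, where 0.0207% did), with unadjusted p under 0.05 for 1 and 0 genes (5.78% and 7.93% of all genes).

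In LN319 the SR genes changed with *TRA2B* KO. In Luc *TRA2B* KO, 8 of 10 were called, where 42.7% of all genes were. *TRA2A* was also called lower there, besides the targeted *TRA2B*. *SRSF2*, *SRSF3*, *SRSF4*, *SRSF7* and *SRSF9* fell (5 of 10 against 24.2% of all genes), although *SRSF2* turned to 0.16 after quantile normalization, and *SRSF5*, *SRSF10* and *SRSF11* rose (3 of 10 against 18.5%). The median log2 fold change was -0.08 over the 10 genes and 0.02 over all. On the TPM as deposited the median of all genes shifted by 0.11 and the share of higher genes among the calls went from 43.3% to 56.4%. The 3 libraries of Luc *TRA2B* KO had mitochondrial shares of 18.3% to 20.6%, above the 12.1% to 15.1% of all other LN319 libraries, and the part of this in the changes was not tested.

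*SRSF3* showed the largest fall in LN319. It was at 462, 414 and 469 TPM in Luc Control KO and at 308, 312 and 308 TPM in Luc *TRA2B* KO, with no overlap, a log2 fold change of -0.64 (with SE 0.117 and adjusted p = 8.81e-04, limma). *SRSF9* went from 248, 231 and 249 TPM to 182, 184 and 182 TPM (-0.52, SE 0.105, adjusted p = 0.00175), and *SRSF7* from 170, 166 and 170 TPM to 148, 148 and 137 TPM (-0.33, SE 0.0669, adjusted p = 0.00162). The knockout libraries of each lay below all controls. *SRSF4* fell by a log2 fold change of -0.23 and *SRSF2* by -0.17, and neither passed on the TPM as deposited (-0.12 and -0.06) or after quantile normalization (-0.0027 and 0.16). The *SRSF2* call was lost under 7 of 14 alternatives in all, among them a 5 TPM filter and leaving out Luc Control KO replicate 1 or 3 or Luc *TRA2B* KO replicate 1 or 3 (adjusted p from 0.0549 to 0.121 without one of these libraries).

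*SRSF5* and *SRSF11* rose. *SRSF5* was at 381, 359 and 341 TPM in Luc Control KO and at 528, 500 and 505 TPM in Luc *TRA2B* KO, a log2 fold change of 0.39 (with SE 0.0716 and adjusted p = 8.58e-04, limma), and *SRSF11* went from 409, 446 and 412 TPM to 547, 558 and 539 TPM (0.27, SE 0.0594, adjusted p = 0.00319). Neither gene's groups overlapped. *SRSF10* rose by 0.17 (adjusted p = 0.0237), and its call was lost under 4 of 14 alternatives. *SRSF1*, called lower in both lung double knockdowns, was at 334, 344 and 357 TPM against 285, 317 and 323 TPM here, a log2 fold change of 0.05 (adjusted p = 0.432, limma) that was called under 3 of 14 alternatives, at 0.13 with a 5 TPM filter, 0.16 without scaling and 0.35 after quantile normalization (adjusted p from 4.35e-04 to 0.0334), and whose TPM groups did not overlap. *SRSF6* was at 0.01 and was not called, though its TPM, 54.1 to 54.8 against 49.1 to 51.4, did not overlap, and after quantile normalization it was called at 0.14 (adjusted p = 0.0226).

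**Figure D3:**
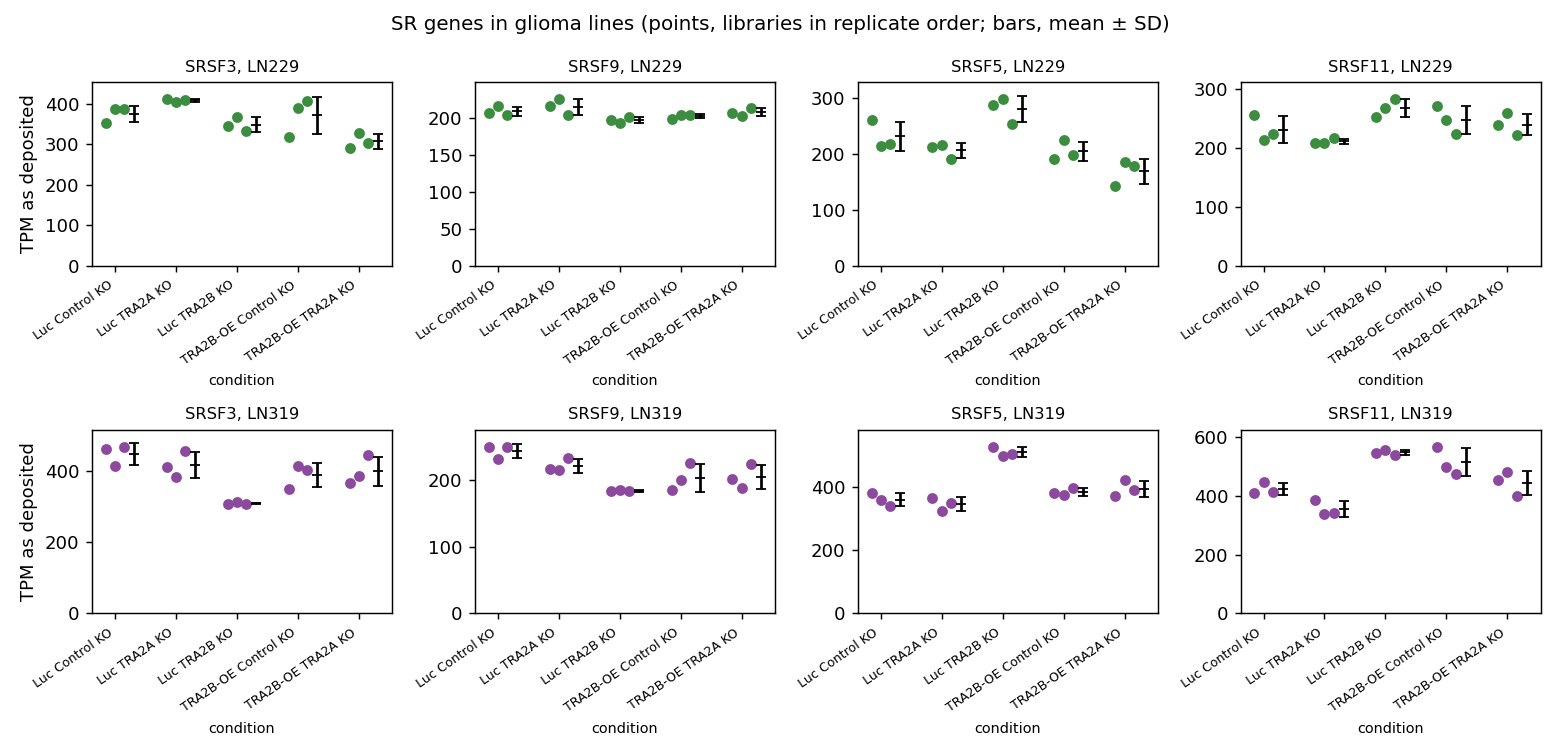
TPM as deposited (y axis) of *SRSF3*, *SRSF9*, *SRSF5* and *SRSF11* in the 5 conditions of LN229 (upper row) and LN319 (lower row), with a point for each library and the mean ± SD (n = 3) beside it. In LN319 Luc *TRA2B* KO, *SRSF3* and *SRSF9* are lower and *SRSF5* and *SRSF11* are higher than in the Luc control, and the replicates lie close together.

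Of the pathway list of 23 genes, 5 rose and 8 fell in LN319 Luc *TRA2B* KO, where 18.5% of all genes rose and 24.2% fell, with a median log2 fold change of -0.06 beside 0.02 over all genes. The rises were near the share of all genes. The hnRNP genes fell in 5 of 6 cases, against the same 24.2%, with *HNRNPA1* at -0.73, and *ALYREF* fell by a log2 fold change of -0.59. *PNN*, *SRRM1* and *SRRM2*, which encode proteins of the splicing coactivator complex, rose by 0.46, 0.38 and 0.43. *SRPK1* was at -0.01 and *U2AF1* at -0.30, and neither was called. *SRSF8* fell by a log2 fold change of -0.38 where it rose in the lung lines.

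The other LN319 comparisons gave few calls. In Luc *TRA2A* KO, 1 of 10 was called against 14.3% of all genes, *SRSF11* at 387, 340 and 341 TPM against 409, 446 and 412 TPM, a log2 fold change of -0.21 (with SE 0.0594 and adjusted p = 0.0353, limma) that was lost under 9 of 14 alternatives, among them leaving out any one control library or either *TRA2A* KO replicate 2 or 3. *SRSF7*, at -0.16 there, was called on the unscaled TPM (-0.20, adjusted p = 0.00806). In TRA2B-OE Control KO, 0 of 10 were called (4.3% of all genes), with 6 at an unadjusted p under 0.05 (25.0% of all genes). *SRSF9* had the lowest adjusted p, at 184, 199 and 224 TPM against 248, 231 and 249 TPM (log2 fold change -0.35, adjusted p = 0.0713, limma). Without TRA2B-OE Control KO replicate 3, *SRSF9* and *SRSF11* were called, beside 9.44% of all genes. In TRA2B-OE *TRA2A* KO, 0 of 10 were called (2.81% of all genes), with 1 gene at an unadjusted p under 0.05 (18.0% of all genes).

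**Figure D4:**
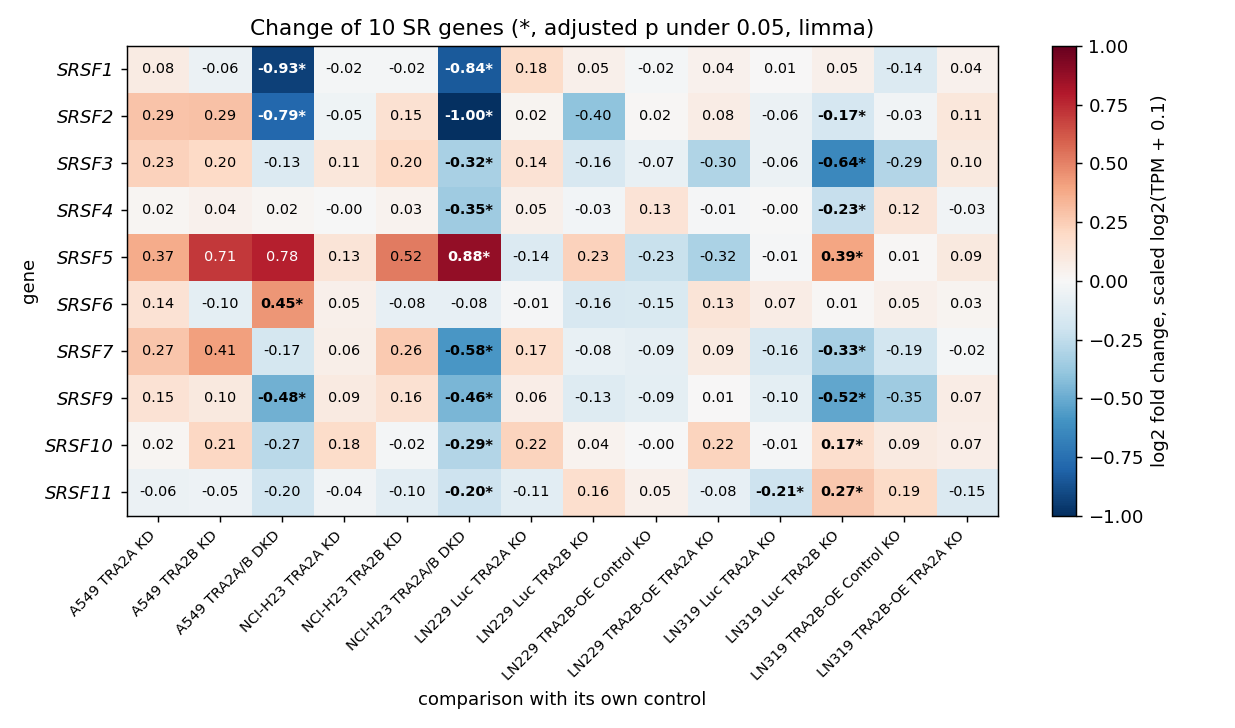
Log2 fold change of each SR gene (rows) in the 14 comparisons with their own controls (columns), in scaled log2(TPM + 0.1), with an asterisk at an adjusted p under 0.05 (limma). The calls gather in both *TRA2A/B* DKD columns and in LN319 Luc *TRA2B* KO, and the values range from -0.995 (*SRSF2*, NCI-H23) to 0.88 (*SRSF5*, NCI-H23).

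Over the 14 comparisons no SR gene was called in more than 3. *SRSF2*, *SRSF9* and *SRSF11* were called in 3 each, *SRSF6* in 1, and the others in 2. *SRSF1*, *SRSF2*, *SRSF3*, *SRSF4*, *SRSF7* and *SRSF9* were lower wherever they were called, although *SRSF2* in LN319 changed sign after quantile normalization, *SRSF5* and *SRSF6* were higher, and *SRSF10* and *SRSF11* were called in both directions. The control group is shared by comparisons within a line, so these counts are not independent.

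The patterns of the genes over all libraries were set side by side as Pearson's r of scaled log2 values within each line, averaged over the 4 lines, as a description. *SRSF3*, *SRSF7* and *SRSF9* were most alike, with a mean r of 0.876 for *SRSF7* and *SRSF9*, 0.840 for *SRSF3* and *SRSF7* and 0.831 for *SRSF3* and *SRSF9*. The lowest mean r was -0.29, between *SRSF2* and *SRSF5*, and 32 of the 45 pairs had a mean r above 0. Among 13381 genes tested in all lines, those most like *SRSF1* were *POLD3* (0.857), *FANCI* (0.850) and *MCM6* (0.834), genes of DNA replication and repair, and those most like *SRSF2* were *HNRNPF* (0.916), *TUBB3* (0.910) and *PCNA* (0.905). *SRSF5* was most like *NSUN5P2* (0.926), *LENG8* (0.925) and *NRBP2* (0.898), and *SRSF9* was most like *H2AFZ* (0.928), *STOML2* (0.924) and *MRPL11* (0.919). For *SRSF6* the highest mean r was 0.647, with *RAB3GAP1*, and for *SRSF4*, *SRSF10* and *SRSF11* it was 0.756 (*PDLIM1*), 0.746 (*DDX11*) and 0.785 (*STK36*). *SRSF3* was most like *HNRNPA0* (0.926), *LSM3* (0.924) and *HSPE1* (0.920), and *SRSF7* most like *H2AFZ* (0.912), *COMMD4* (0.911) and *SNRPF* (0.906). The points of a line share its conditions and its differences in library quality.

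**Figure D5:**
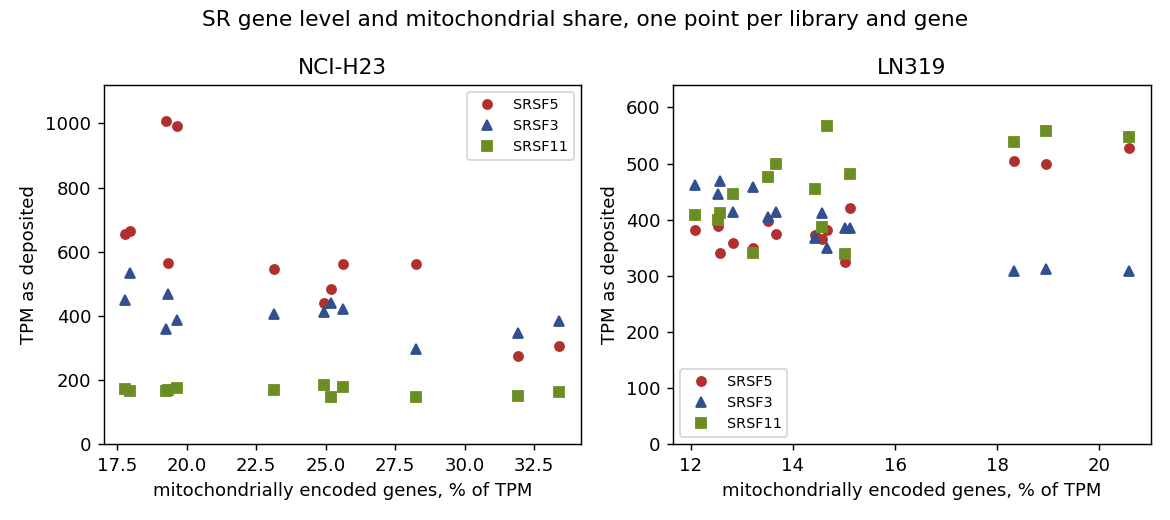
TPM as deposited (y axis) of *SRSF5*, *SRSF3* and *SRSF11* against the share of TPM from mitochondrially encoded genes in percent (x axis), with a point for each gene in each of the 12 NCI-H23 libraries (left) and 15 LN319 libraries (right). In NCI-H23, *SRSF5* is lowest in the libraries with the highest shares, and in LN319 the 3 Luc *TRA2B* KO libraries lie apart at 18.3% to 20.6%.

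The mitochondrial share moved with several of these genes. Over the 15 LN319 libraries its r with the scaled level was -0.88 for *SRSF3*, -0.80 for *SRSF7*, -0.78 for *SRSF9*, 0.78 for *SRSF5* and 0.58 for *SRSF11*. For *SRSF5* the sign was opposite in NCI-H23, at -0.82, and it was -0.28 in A549 and 0.40 in LN229. These values describe libraries grouped by condition, and the part of the share in the changes was not tested.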

How the data were processed

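RNA-sequencing libraries of 4 cancer cell lines were used, 12 each of A549 and NCI-H23 and 15 each of LN229 and LN319. Polyadenylated RNA was sequenced as directional paired-end libraries. The paper states that kallisto v0.48.0 and the Gencode v34 annotation (GRCh38) gave transcript levels. What the authors deposited is TPM per gene. The submitters' processing notes also name STAR 2.7.3. TPM keeps no record of depth, and the replicate SD stands for the precision. All columns were matched to a sample (0 were left over), and 0 libraries were identical to another. The labels do not say that replicates were separate cultures, so p-values may measure technical spread.

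The lines were fitted separately (R 4.3.3, limma 3.58.1). A gene was tested if 4 or more libraries reached 1 TPM, which left 16405 (A549), 16293 (NCI-H23), 18490 (LN229) and 19303 (LN319). Libraries were scaled by trimmed means of log ratios without weights (30% of ratios and 5% of abundances trimmed), and values were taken as log2(TPM + 0.1), a scale that understates changes of low genes. One linear model per line held all its libraries, with variances moderated by empirical Bayes along a trend. All tests were two-sided, with Benjamini-Hochberg adjustment over all genes of a comparison. The authors' limma-voom fit needs counts and was not repeated. Levels and percents of control are of TPM as deposited, with the SD of 3 libraries. An exact permutation test of 3 against 3 cannot go below 0.1. The method was run on simulated libraries with independent normal noise and log2 changes of 1, larger than any SR change called in the 14 comparisons. That run does not cover smaller changes or differences in library quality.

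All 10 SR genes are named, with *TRA2A* and *TRA2B*, the pathway genes of a fixed list and the 3 genes most like each SR gene. The members and lists were chosen with earlier results of these data known. Alternatives were pseudocounts of 0.5 and 1, no low-value filter, a filter at 5 TPM, TPM as deposited or quantile normalization, only the compared groups, the replicate number as a block, a minimum absolute log2 fold change of 1, omission of each library in turn and, added after seeing the data, NCI-H23 without libraries above 28% mitochondrial TPM. Exon sequences were read with Python 3.11.15, and figures were drawn with matplotlib 3.10.9. Splicing and other assays of the study were not analysed here.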

Additional observations from a re-analysis of the deposited data

Results flagged for a closer look

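The change in *TRA2A/B* DKD differed from the sum of both single KDs for 12 gene and line pairs (limma, Benjamini-Hochberg adjusted over all genes). In A549 the differences were -0.96 for *SRSF1*, -1.36 for *SRSF2*, 0.40 for *SRSF6*, -0.72 for *SRSF9* and -0.50 for *SRSF10*, on the log2 scale. In NCI-H23 they were -0.81 for *SRSF1*, -1.10 for *SRSF2*, -0.63 for *SRSF3*, -0.38 for *SRSF4*, -0.90 for *SRSF7*, -0.70 for *SRSF9* and -0.46 for *SRSF10*.

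In 2 cases every library of the treated group lay on one side of the control in LN229 and on the other in LN319, and the difference between the lines was not tested. *SRSF7* had a log2 fold change of 0.17 in LN229 Luc *TRA2A* KO and -0.16 in LN319 Luc *TRA2A* KO. *SRSF6* had -0.15 in LN229 TRA2B-OE Control KO and 0.052 in LN319 TRA2B-OE Control KO. None of these 4 values passed the test within its line.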

How the results depend on the processing

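Of the 22 calls in the 14 comparisons, 10 were kept under every alternative other than the fold change minimum, and of 118 uncalled values 106 stayed uncalled. With an absolute log2 fold change above 1 required, the counts were 0 in A549 and NCI-H23 *TRA2A/B* DKD, where 2105 and 2089 of all genes passed. They were also 0 in LN319 Luc *TRA2A* KO and Luc *TRA2B* KO, where 359 and 757 of all genes passed. With only the compared groups in the fit, 2 SR genes were called in A549 *TRA2A/B* DKD (19% of all genes) and 0 in LN319 Luc *TRA2A* KO (10.8%). The latter was also 0 with no filter (4.54%). On the TPM as deposited, 4 were called in NCI-H23 *TRA2A/B* DKD (42.6% of all genes) and 1 in LN319 TRA2B-OE Control KO (4.7%), where quantile normalization called 2 (4.52%). *SRSF2* reversed to 0.16 in LN319 Luc *TRA2B* KO after quantile normalization. For the A549 *TRA2A/B* DKD difference from the sum, no filter, quantile normalization, TPM as deposited and the replicate block each called 3. The shares of all genes were 5.5%, 13.3%, 13.8% and 11.4% in that order. The cause of these changes was not tested.

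Leaving out single libraries gave 0 to 2 calls in LN229 Luc *TRA2B* KO (2 without Luc Control KO replicate 1, where 20.7% of all genes were called). It gave 0 to 1 in LN229 TRA2B-OE *TRA2A* KO (1 without TRA2B-OE Control KO replicate 1, beside 2.83% of all genes). In LN319 it gave 0 to 1 in Luc *TRA2A* KO (9.09% to 12% of all genes) and 0 to 2 in TRA2B-OE Control KO (0.637% to 9.44%). For the A549 difference it gave 2 to 5 (9.17% to 22.2%).

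In 0 of 14 comparisons did every pair of same-numbered libraries correlate above 0.1 (r from -0.15 to 0.21). The highest values were those of LN229 replicate 1, at 0.21 in TRA2B-OE Control KO and 0.16 in Luc *TRA2A* KO. With the replicate block, the share of all genes called rose from 3.79% to 8.54% in LN229 Luc *TRA2A* KO. It rose from 0.557% to 7.15% in LN229 Luc *TRA2B* KO and from 4.3% to 10.1% in LN319 TRA2B-OE Control KO. In A549 *TRA2A/B* DKD it went from 30.5% to 28.6%. Among the 10 SR genes, the block called 1 in LN229 Luc *TRA2B* KO (*SRSF2*, beside 7.15% of all genes) and 1 in LN229 TRA2B-OE *TRA2A* KO (*SRSF3*, beside 10.3%). It called 2 in LN319 TRA2B-OE Control KO (*SRSF1* and *SRSF9*, beside 10.1%).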
